A study of Rattus norvegicus with 2 samples.

Results

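A set of 41 genes of the DNA replication machinery and of the supply of its nucleotides was followed in rat esophagus after repeated dosing with OSU-HDAC42, an inhibitor of histone deacetylases, which take acetyl groups off histones and further proteins. The genes were taken from a list by name, and each was read from the probe sets that the array's annotation gives to that gene alone, with the probe set of the highest mean standing for the gene. Of the 41 genes, 38 were measured, out of 14217 genes with such a probe set. Cdc6 and Gins2 had no probe set under their symbol, and Rrm2 shared its probe sets with another gene.

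Esophageal tissue came from male Sprague-Dawley rats, an outbred laboratory stock, bought at 5 to 6 weeks of age. The OSU-HDAC42 group received 7 oral doses of 50 mg/kg body weight, 350 mg/kg in total, and the other group received vehicle by the same route. The esophagus was removed on day 15, a further 24 hours after dosing ended. Each group had 1 array, and the labels do not say whether its RNA came from 1 rat or from several, so no value here carries an error between rats and no test was possible.

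A cell copies its DNA once in each division. Origins are first licensed by the origin recognition complex, Cdc6 and Cdt1, which load the MCM2-7 helicase in G1, and the helicase is then switched on in S phase. Primase and the polymerases build the new strands, held by a sliding clamp, while ribonucleotide reductase, thymidylate synthase and thymidine kinase supply deoxynucleotides. In esophagus, as in other stratified epithelia, dividing cells lie mainly in and just above the basal layer, and many replication genes are transcribed under the control of E2F factors at the start of S phase.

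The replication genes did not differ as a block. After OSU-HDAC42 the measured subunits of DNA polymerase alpha-primase, the flap endonuclease Fen1 and the licensing factor Cdt1 were higher, by 1.30-fold to 1.65-fold. The MCM2-7 helicase subunits, apart from Mcm2 and Mcm4, and the helicase cofactor Gins1 were lower, by 1.21-fold to 1.62-fold. The sliding clamp, its loader and the single-strand binding proteins ranged from near equal to 1.44-fold higher. Read from the brightest probe set, none of the 31 members that reached the expression floor differed by 2-fold. The floor was an intensity of 49.8 on at least 1 array. The polymerase alpha subunit Pola2, which set the 1.30-fold end of the range above, did not reach it. Of the 9542 genes that reached the floor, 1.88% were higher by 2-fold or more and 3.18% lower. A dimmer probe set of Tk1, which reached the floor only through the OSU-HDAC42 array, was 2.29-fold higher.

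Each difference is the log2 intensity in the OSU-HDAC42 sample less that in the vehicle sample, after values under 16 had been raised to 16. Over the 38 measured members the median was 0.091, with a range from -0.69 to 0.79, and 21 members were higher, 15 lower and 2 equal, beside 46.8% of the genes reaching the floor that were higher by any amount and 52.8% that were lower. Over all 14217 genes the median was 0. Of the 31 members reaching the floor, 4 were at least 1.5-fold higher (Fen1, Cdt1, Prim1 and Prim2), beside 7.6% of all genes reaching it, and 1 was at least 1.5-fold lower (Mcm3), beside 10.9%. Without the floor 5 were higher, with Uhrf1 added. At a lower threshold, a log2 difference of 0.32, 11 of the 31 were higher and 5 lower, beside 18.1% and 23.3% of the genes reaching the floor. Error could be gauged only from how far a gene's own probe sets differed, with an SD of 0.29 on the log2 scale (1.23-fold) over 2116 genes. It covers probe noise and not the spread between rats. By this measure 14 members were higher and 9 lower by more than 1 SD, of which 12 and 7 reached the floor, beside 19.9% and 25.2% of the genes reaching the floor.

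**Figure D1:**
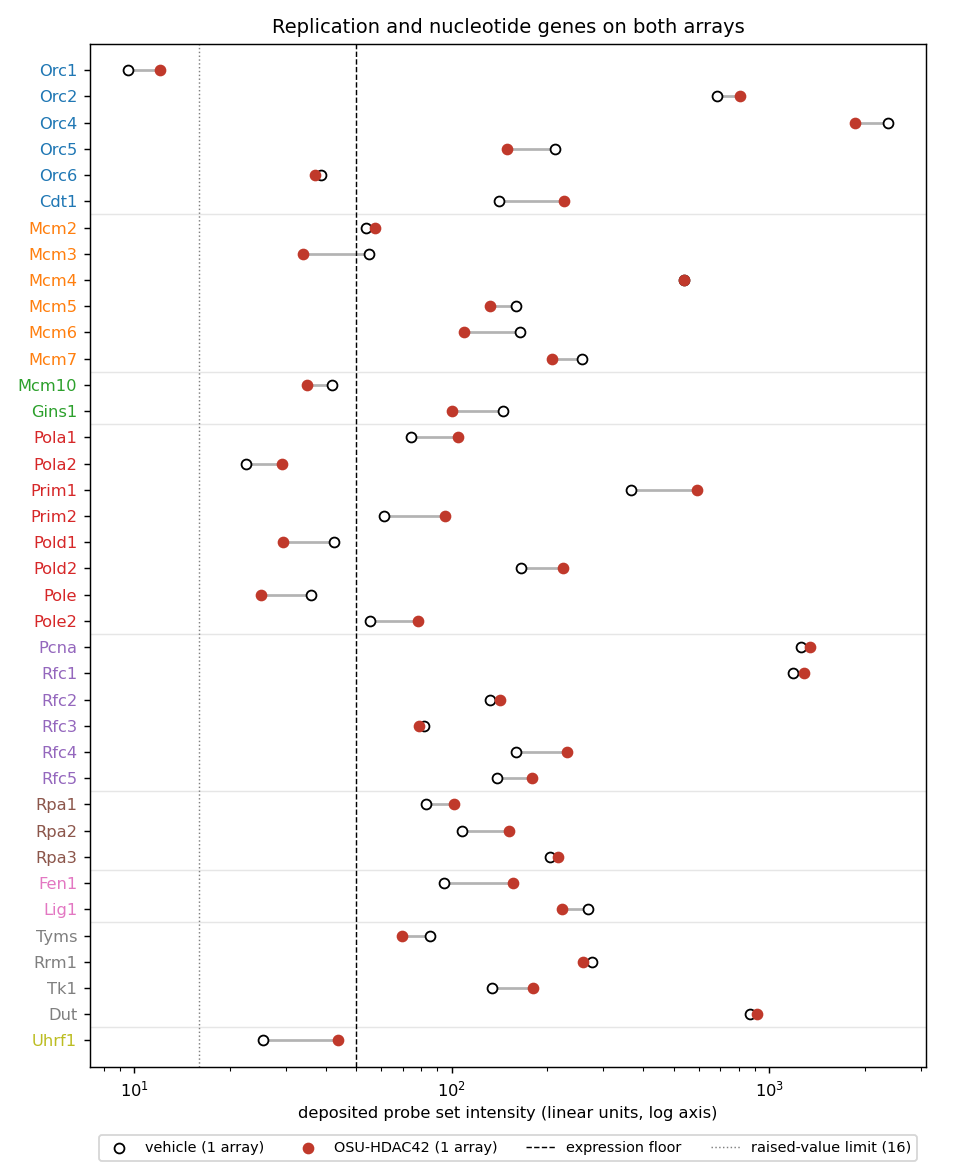
Deposited probe set intensity (log axis) of the 38 measured members on the vehicle array (open circles) and the OSU-HDAC42 array (red circles), 1 array each, coloured and ordered by role; the dashed line is the expression floor of 49.8 and the dotted line the limit of 16. Prim1, Cdt1 and Fen1 lie to the right of their vehicle points, Mcm3, Mcm6 and Gins1 to the left, and the points of Mcm4 coincide.

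Both arrays had close median intensities, 48.4 for OSU-HDAC42 and 49.1 for vehicle, and 28.4% and 29.2% of probe sets were under 16. The tissue label was borne out by Krt13 and Krt4, the keratins of esophageal epithelium, which stood at 14438 and 11052 on the OSU-HDAC42 array against 14947 and 11517. All 9 basal keratinocyte markers reached the floor, with a summed intensity of 30063 against 31115 and a median difference of -0.081. Of these, 8 were lower and 1 higher, and the hemidesmosome integrin Itgb4 was 2.43-fold lower. All 7 measured suprabasal markers reached it too and were lower (51454 against 55419), with the envelope protein Evpl 1.61-fold lower. In the layers beneath, 11 of 11 measured skeletal muscle markers were lower (12160 against 24222), whereas 7 of 7 smooth muscle markers (11089 against 6819) and 8 of 8 fibroblast markers (20813 against 16525) were higher. Endothelial markers were higher in 2 of 6 cases and lower in 4 (2738 against 2611), and of 8 leukocyte markers 4 were higher, 2 lower and Cd3d was under 16 on both arrays (897 against 1043). Ratios of 3' to 5' control probe sets, which rise as RNA degrades, were 6.29 and 2.09 for beta-actin and GAPDH on the OSU-HDAC42 array against 7.76 and 2.32 on the vehicle array, while that of hexokinase was 7.18 against 5.66. The part of tissue makeup and RNA quality in the member values below was not tested. In such bulk tissue, fewer cells of a type and less RNA per cell cannot be told apart.

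Among the licensing genes, Cdt1 was higher, while of the 5 measured members of the origin recognition complex 1 was higher and 3 were lower. Cdt1, which brings the helicase to the origin, stood at 226 in the OSU-HDAC42 sample against 141 in the vehicle sample (1.61-fold higher, log2 difference 0.68). Orc5 stood at 150 against 211 (1.41-fold lower), and its other probe set was lower as well, at 73.0 against 97.4. Orc4 stood at 1866 against 2364 (-0.34), but its other probe set went the other way, at 353 against 328. Orc2 was slightly higher, at 810 against 683 (0.25), and Orc3, a subunit outside the member list, stood at 257 against 256 (0.0044). Orc6 was under the floor on both arrays, at 37.1 against 38.8, and Orc1 was under 16 on both, so that no difference could be measured for it. Over the 6 measured licensing genes the median was -0.031, and 2 were higher and 3 lower.

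The MCM2-7 helicase unwinds DNA ahead of the fork as a ring of 6 different subunits, and 4 of the 6 were lower after OSU-HDAC42. Mcm6 stood at 109 against 164 (-0.58), just short of 1.5-fold. Mcm3 stood at 34.0 against 55.0 (-0.69), and it reached the floor only through the vehicle array, so that with the floor set on the mean of both arrays no member was at least 1.5-fold lower. Mcm7 stood at 207 against 256 (-0.31) and Mcm5 at 132 against 159 (-0.27), differences of about 1 SD of probe noise. Mcm2 stood at 57.1 against 53.5 (0.095). Mcm4 had the same deposited value on both arrays, 540, as had 3.1% of all non-control probe sets. The median of the 6 subunits was -0.29, and each had 1 probe set, so none could be checked against another probe set of its gene.

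The promoters of the helicase genes share an E2F-type element. The search took TTTCCCGC, TTTCGCGC, TTTGCCGC and TTTGGCGC on both strands, in the RefSeq promoter windows of the GRCr8 rat assembly, which run from 250 bases before to 50 after each gene's start. Overlapping matches were counted separately. At least 1 match lay in the windows of Mcm2, Mcm3, Mcm5, Mcm6 and Mcm7, all 5 of the 5 helicase genes with a window, whereas 2.14% of all 33469 windows held one. The 250 bases before the start are shown for 4 of them, with the element in capitals, because the element is the feature that these genes have in common. They lie at chr4:122918095-122918344 on the minus strand (Mcm2), chr19:13488563-13488812 on the plus strand (Mcm5), chr13:42404353-42404602 on the minus strand (Mcm6) and chr12:22163179-22163428 on the minus strand (Mcm7).
Mcm2: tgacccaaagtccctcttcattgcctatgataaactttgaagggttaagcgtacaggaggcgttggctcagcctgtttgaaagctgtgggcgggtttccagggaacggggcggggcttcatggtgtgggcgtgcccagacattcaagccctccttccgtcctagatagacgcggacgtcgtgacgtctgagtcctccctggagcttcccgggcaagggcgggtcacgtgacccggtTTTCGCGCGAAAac
Mcm5: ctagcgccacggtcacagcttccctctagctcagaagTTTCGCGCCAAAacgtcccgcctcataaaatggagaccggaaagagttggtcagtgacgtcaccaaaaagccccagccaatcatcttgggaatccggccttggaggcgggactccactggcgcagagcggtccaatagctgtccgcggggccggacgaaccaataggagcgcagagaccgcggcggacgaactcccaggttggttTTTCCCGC
Mcm6: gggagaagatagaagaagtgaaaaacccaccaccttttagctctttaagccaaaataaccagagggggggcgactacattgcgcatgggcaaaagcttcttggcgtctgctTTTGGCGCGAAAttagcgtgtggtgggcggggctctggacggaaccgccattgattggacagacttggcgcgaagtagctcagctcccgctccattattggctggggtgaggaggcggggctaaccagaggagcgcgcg
Mcm7: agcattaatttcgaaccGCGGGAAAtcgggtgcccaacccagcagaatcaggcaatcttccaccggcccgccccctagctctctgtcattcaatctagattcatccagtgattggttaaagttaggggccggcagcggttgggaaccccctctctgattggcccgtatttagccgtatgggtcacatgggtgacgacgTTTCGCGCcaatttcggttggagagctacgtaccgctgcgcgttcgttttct
In Mcm2, Mcm5 and Mcm6 a pair of matches on opposite strands overlaps to form a run of 12 bases, which begins 14, 213 and 139 bases before the start. Mcm5 has a further match 8 bases before the start, and in Mcm7 the matches begin 233 and 52 bases before it. In Mcm3 a match begins 6 bases before the start and another at base 14 after it. A match describes the letters only and does not show that a factor binds there. Lack of a match does not show that no E2F site is present, since only those exact sequences within the window were searched.

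Of the genes that turn the loaded helicase into a moving one, Gins1, a subunit of the GINS complex, stood at 99.8 against 145 (-0.54). Mcm10 was under the floor on both arrays, at 34.9 against 42.0 (-0.27). Both were lower, like most of the helicase subunits. GINS subunits outside the member list went both ways. Gins4 stood at 142 against 164 (-0.21), and Gins3 at 40.3 against 21.1 (0.93), under the floor on both arrays. The Gins1 window held E2F-type matches beginning 25 and 21 bases before the start, and that of Mcm10 held none.

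All 4 subunits of DNA polymerase alpha-primase, the enzyme that lays down the RNA-DNA primer of every new strand, were higher. Prim1, its catalytic primase subunit, stood at 589 against 367 (1.60-fold, 0.68). Prim2, the large primase subunit, stood at 95.3 against 61.1 (1.56-fold, 0.64), and the polymerase subunit Pola1 at 104 against 74.4 (1.40-fold, 0.49). Pola2, at 29.2 against 22.4 (0.38), was under the floor on both arrays, and its difference became 0 when values under 32 were raised to 32. The median of the 4 subunits was 0.56, and each was read from 1 probe set.

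No E2F-type match was found in the promoter windows of the primase genes. Their 250 bases before the start are shown for contrast with the helicase genes, Prim1 at chr7:1031212-1031461 on the plus strand and Prim2 at chr9:43400455-43400704 on the minus strand, and the 50 bases after the start held no match either.
Prim1: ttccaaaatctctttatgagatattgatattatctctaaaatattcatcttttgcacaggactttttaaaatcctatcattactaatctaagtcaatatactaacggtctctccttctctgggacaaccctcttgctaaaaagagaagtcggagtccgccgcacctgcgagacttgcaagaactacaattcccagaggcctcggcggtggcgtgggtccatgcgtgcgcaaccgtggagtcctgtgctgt
Prim2: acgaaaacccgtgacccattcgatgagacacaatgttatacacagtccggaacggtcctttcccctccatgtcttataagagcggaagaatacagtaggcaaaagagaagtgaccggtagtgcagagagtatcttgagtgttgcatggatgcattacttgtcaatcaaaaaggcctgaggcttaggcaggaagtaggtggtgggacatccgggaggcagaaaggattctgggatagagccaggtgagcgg
Of the other subunits Pola2 had no match either, and Pola1 had 1, which begins 172 bases before the start.

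Among the members, the polymerases that extend the strands were split, with accessory subunits higher and catalytic subunits lower. Pold2, an accessory subunit of polymerase delta, stood at 224 against 165 (0.44), and Pole2, the second subunit of polymerase epsilon, at 78.4 against 55.0 (0.51). The catalytic subunits Pold1, at 29.3 against 42.5 (-0.54), and Pole, at 25.0 against 35.9 (-0.52), were both lower but under the floor on both arrays. Each of these subunits was read from 1 probe set. Measured accessory subunits outside the member list were not higher. Pole4 stood at 523 against 754 (-0.53), Pold4 at 361 against 459 (-0.34) and Pold3 at 172 against 172 (-0.0049). The split thus did not extend to them. With values under 32 raised to 32, Pole differed by -0.16.

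**Figure D2:**
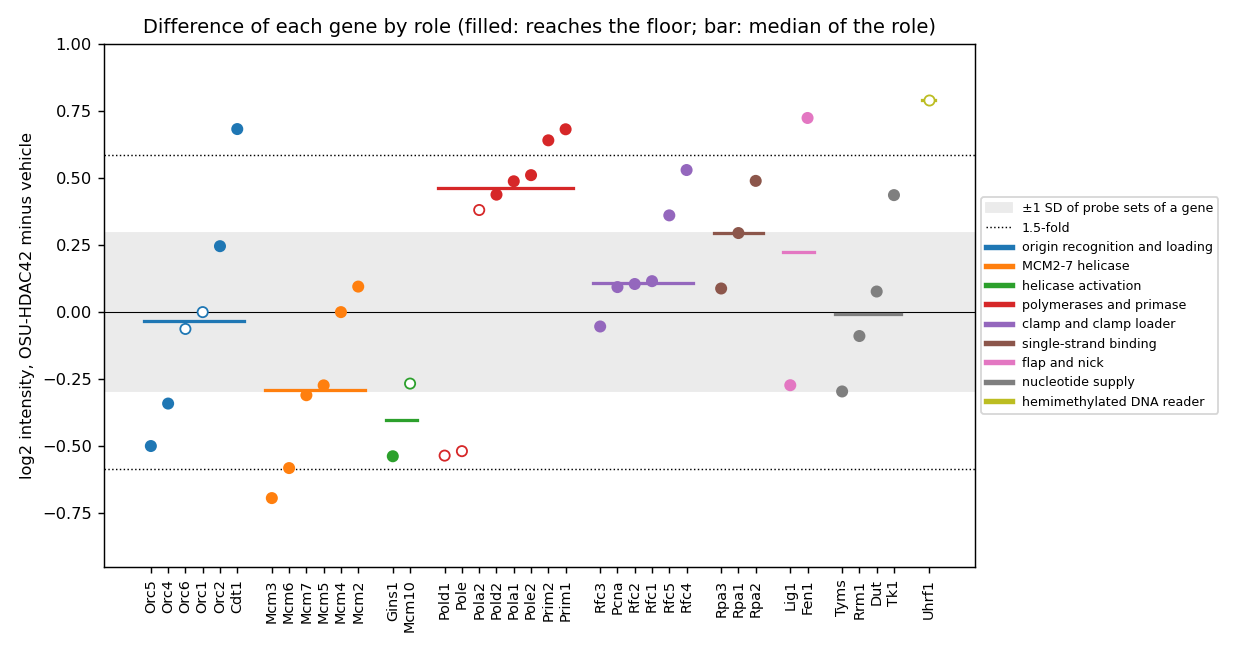
Difference in log2 intensity, OSU-HDAC42 less vehicle, of each measured member, grouped by role; filled circles reached the expression floor, open circles did not, bars are role medians, the grey band is 1 SD (0.29) of probe sets of a gene and dotted lines are 1.5-fold. The polymerase and primase genes have a median of 0.46 and the MCM2-7 genes one of -0.29.

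The sliding clamp and most of its loader were near equal. Pcna, the clamp that holds the polymerases on DNA, stood at 1341 against 1257 (0.093). Among the subunits of the clamp loader, Rfc4 stood at 230 against 159 (0.53) and Rfc5 at 178 against 139 (0.36), while Rfc1, Rfc2 and Rfc3 differed by 0.12, 0.10 and -0.054. Only Rfc4 and Rfc5 exceeded 1 SD of probe noise, and the other probe set of Rfc5 stood at 149 against 152. The 3 subunits of RPA, which coats single-stranded DNA, were all higher. Rpa2 stood at 151 against 108 (0.49), Rpa1 at 101 against 82.7 (0.29) and Rpa3 at 216 against 204 (0.088).

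Of the enzymes that finish the lagging strand, Fen1, which trims the flap of an Okazaki fragment, had the largest difference of the members reaching the floor when each was read from its brightest probe set, at 156 against 94.4 (1.65-fold, 0.72). Lig1, the ligase that seals the remaining nick, gave opposite answers by probe set. Its brighter probe set stood at 222 against 268 (-0.27) and the other at 231 against 168 (0.46), so no direction can be given for Lig1. The Fen1 window held no E2F-type match, and that of Lig1 held 1 at base 20 after the start.

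In nucleotide supply, Tk1, the thymidine kinase of dividing cells, was higher on all 3 of its probe sets. These stood at 181 against 133 (0.44), 137 against 75.7 (0.86) and 51.0 against 22.3 (1.19, or 2.29-fold). The last of these reached the floor only through the OSU-HDAC42 array. The probe set chosen by brightness gave the smallest difference, and the mean over all 3 was 0.83. Tyms, thymidylate synthase, stood at 69.6 against 85.4 (-0.30). Rrm1, the large subunit of ribonucleotide reductase, stood at 259 against 275 (-0.089). Dut, which removes dUTP before it can be built into DNA, stood at 914 against 867 (0.077), and its other probe set was dim, at 15.5 against 21.2. The 4 measured enzymes had a median of -0.0062, with 2 higher and 2 lower.

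Uhrf1 reads hemimethylated DNA behind the fork and brings in the maintenance methyltransferase. With each member read from its brightest probe set, Uhrf1 had the largest difference of all measured members, at 43.8 against 25.3 (1.73-fold, 0.79). It was under the floor on both arrays, and with values under 32 raised to 32 it differed by 0.45. Its partner Dnmt1 stood at 250 against 289 (-0.21).

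**Figure D3:**
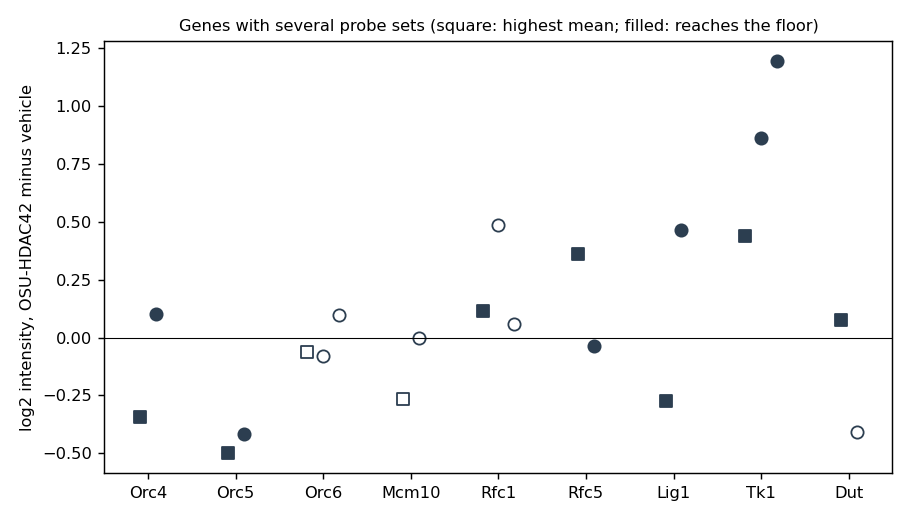
Difference in log2 intensity, OSU-HDAC42 less vehicle, for each probe set of the 9 members with more than 1; squares are the probe sets of highest mean, circles the others, and filled symbols reached the expression floor. Tk1 is above 0 on all its probe sets and Orc5 below 0 on both, while Orc4, Rfc5 and Lig1 have floor-reaching probe sets on both sides of 0.

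For 29 of the 38 members there was 1 probe set, and 9 had several. Among these 9, all probe sets had the same sign in 3 genes (Orc5, Rfc1 and Tk1).

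Other factors of the replication fork, from a list that holds none of the members, also went both ways. Of 32 genes 27 were measured, 12 were higher and 13 lower, and the median was 0. At least 1.5-fold higher were 3 of the 22 that reached the floor, and at least 1.5-fold lower were 3, beside 7.6% and 10.9% of all genes reaching it. Asf1b, a histone chaperone of S phase, stood at 185 against 60.4 (3.07-fold higher), and Chaf1a, the large subunit of the chromatin assembly factor CAF-1, at 107 against 280 (2.62-fold lower). These chaperones hand over histones at the same step behind the fork, and each was read from 1 probe set. Gmnn, the inhibitor of Cdt1, stood at 829 against 466 (0.83), with its other probe set at 71.8 against 55.3. Atad5, which unloads the clamp, stood at 177 against 103 (0.78). The helicase Recql4 stood at 143 against 260 (-0.86), and Mcm9, a relative of the MCM2-7 subunits that acts in recombination, at 250 against 403 (-0.69). Cdc45, the third part of the active helicase beside MCM2-7 and GINS, stood at 295 against 305 (-0.046).

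Other enzymes of nucleotide synthesis went both ways, and Cad had the largest difference among them. Of 22 listed genes 16 were measured, with a median of -0.049, 7 higher and 9 lower. Cad, which carries out the first steps of pyrimidine synthesis, stood at 104 against 246 (2.37-fold lower), and its other probe set was under 16 on both arrays. Umps, which carries out the last steps to UMP, stood at 927 against 759 (0.29). Ctps1, the CTP synthase, stood at 2029 against 1647 (0.30), and Gart, an enzyme of purine synthesis, at 240 against 197 (0.29). The other probe set of Gart also reached the floor and stood at 160 against 101 (0.66). The folate enzymes Mthfd1 and Shmt1 differed by -0.45 and -0.31.

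Genes of mitosis, the phase that follows replication, were mostly higher in the same arrays. Of 40 measured mitosis genes 37 were higher and 3 lower, with a median of 0.66, and 24 of the 38 reaching the floor were at least 1.5-fold higher, beside 7.6% of all genes reaching it. Of the replication and nucleotide members, 4 were. Birc5, a subunit of the chromosomal passenger complex, stood at 745 against 298 (2.50-fold), Cks1b, a partner of cyclin-dependent kinases, at 318 against 136 (2.33-fold), and the kinase Melk at 264 against 127 (2.07-fold). Bub3, a checkpoint protein, and the kinesin Kif2c differed by -0.16 and -0.032, but their other probe sets differed by 0.38 and 0.85, that of Kif2c under the floor. With 1 array in each group, the difference between the lists was not tested.

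**Figure D4:**
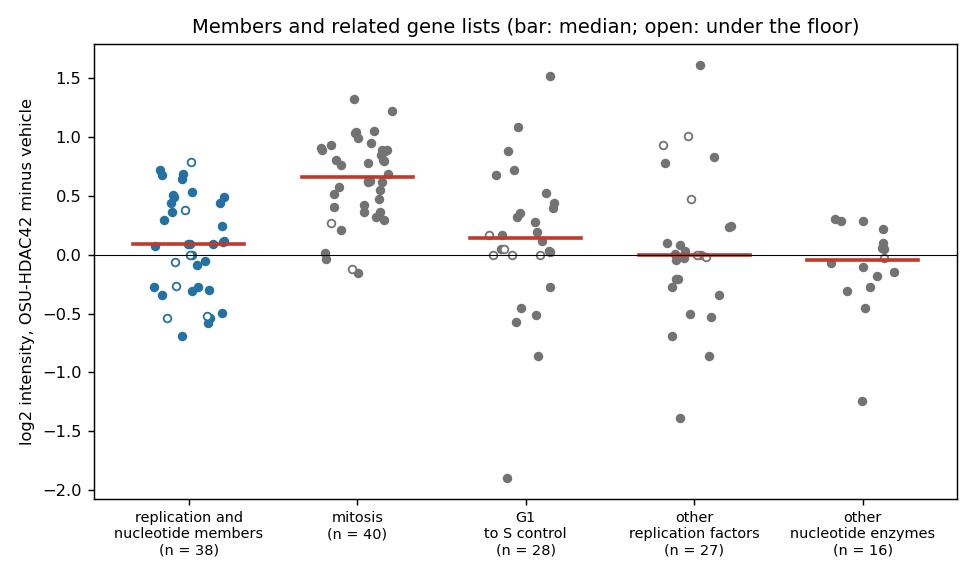
Difference in log2 intensity, OSU-HDAC42 less vehicle, for the 38 measured members (blue) and for related gene lists (grey), 1 point for each gene, spread sideways at random; bars are medians and open points are under the floor. The members have a median of 0.091 and lie on both sides of 0, and the mitosis genes have a median of 0.66.

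The E2F-type element divided the members unevenly. A RefSeq window was matched for 34 measured members, and 16 of them held the element, against 4.19% of the 8012 genes reaching the floor that had a window. Of the 16 members with it, 6 were higher and 10 lower, with a median of -0.27. The 10 include Pole, which was under the floor, and Rfc3, at -0.054. They also include Lig1, for which no direction can be given and which differed by 0.095 as the mean of its probe sets. The median lies between the values of Mcm5 and Lig1, so it depends on that choice of probe set. Of the 18 without it, 14 were higher and 4 lower, with a median of 0.27, and of the 4 lower Orc6, Mcm10 and Pold1 were under the floor. Over all genes the element went with no shift: the 336 genes reaching the floor that held it had a median of -0.027 and the 7676 without it one of -0.031. Cdt1, Pola1, Rpa2, Pole2 and Uhrf1 held the element and were each higher, by 0.49 to 0.79, the element of Uhrf1 lying in 1 of its 3 windows. Only 1 of 35 mitosis genes with a window held it. The CCAAT box, the letters CCAAT on either strand, stood in 19 of the 34 members' windows, in 28 of the 35 mitosis windows and in 39.8% of the genes reaching the floor. Members with a CCAAT box had a median of -0.063 and members without it one of 0.36. Both splits describe the same 34 genes and carry no test. Members without a match are not thereby shown to be free of E2F control. Of the 5 MCM2-7 genes with a window, all held the E2F-type element and 4 the CCAAT box, which Mcm2 lacked.

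**Figure D5:**
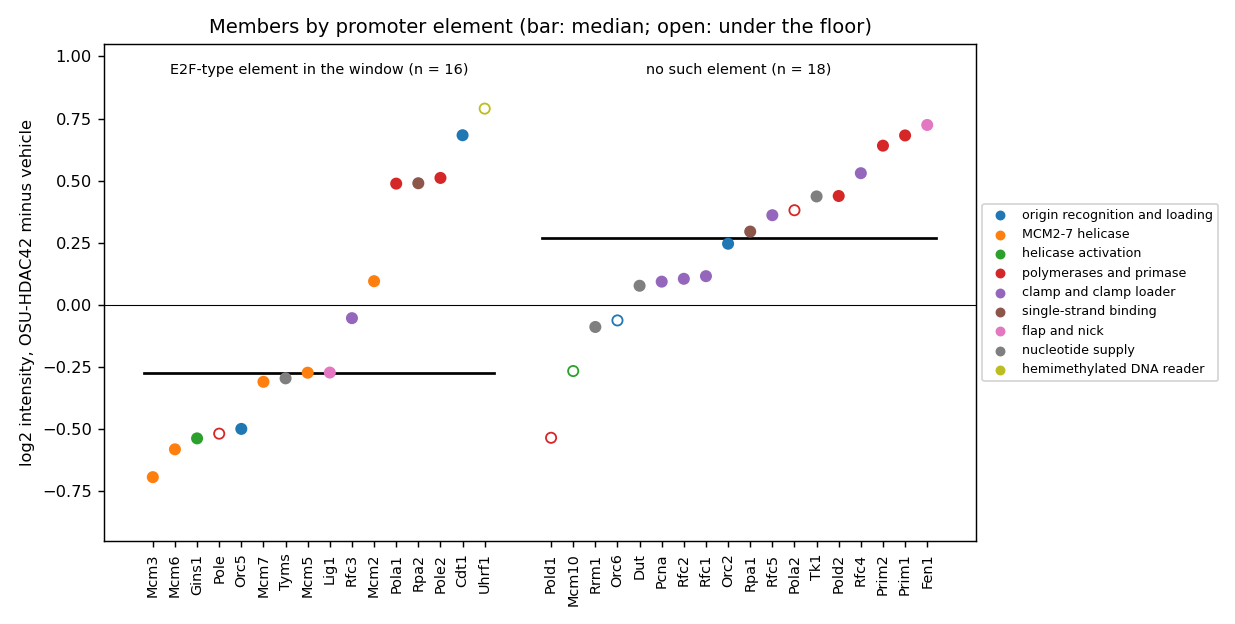
Difference in log2 intensity, OSU-HDAC42 less vehicle, for the 34 measured members with a promoter window, split by whether the window holds an E2F-type element; colours give the role, open circles are under the floor and bars are medians. The 5 MCM2-7 genes with a window all stand on the side with the element (median -0.27), and the side without it has a median of 0.27.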

How the data were processed

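Esophageal RNA of 2 groups was measured, with 1 array in each. The deposited values are linear probe set intensities; per the submitters' processing notes GCOS and RMA were used, with no role or version, and how the authors scaled the arrays is not given in the sources used here. Of 31099 probe sets, 57 controls were left out of gene results. Of the rest, 20826 had 1 gene symbol, 436 several and 9780 none, and those with several or none were not used. Each gene was read from its probe set of highest mean. Before log2 was taken, 16 replaced any lower intensity (Python 3.11.15, pandas 2.3.3). The floor of 49.8 is the median probe set's mean intensity, controls left out. Precision is limited by the number of arrays, and no p-value was computed. The code for the differences was checked on simulated data, with shifts planted in bright genes only. That check does not bear on the small differences of dim members given here. All members were named, and of the related lists the 3 genes above the floor with the largest difference each way. Further genes of these lists were named beside the members they work with. The members and lists were chosen with earlier results of these data known. Alternatives changed the scaling, probe set, raised values, floor and fold. A planned protein motif search was not run, since protein sequences were not used here. All 41 members had their symbol in the RefSeq table of GRCr8, and 35 had a promoter window.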

Additional observations from a re-analysis of the deposited data

Results flagged for a closer look

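Probe sets outside the comparison of genes gave a signal that the gene values do not hold. The 2 probe sets annotated to Rrm2, the small subunit of ribonucleotide reductase, are annotated to Rrm2l1 as well, and were therefore used for neither gene. They stood at 2044 on the OSU-HDAC42 array against 871 on the vehicle array (2.35-fold higher, 1.23 on the log2 scale) and at 69.2 against 25.4 (2.73-fold, 1.45). The second of these probe sets reached the floor only through the OSU-HDAC42 array. Shared probe sets were flagged here only if they reached the floor and differed by at least 2-fold. No measured member, read from its brightest probe set, differed by more than 1.73-fold, so the flagging rule itself placed both differences above those of the members. Rrm1, the large subunit of the same enzyme, differed by -0.089. Which of the annotated genes the signal comes from cannot be told apart.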

How the results depend on the processing

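The median of the members kept its sign under every alternative run, from 0.073 to 0.11, and 33 of 38 members kept theirs. The exceptions were Dut, Lig1, Mcm4, Orc1 and Pola2. Of 266 member values under 7 alternatives, 6 moved by more than the probe set SD and none of the members called at 1.5-fold changed sign. With centring, quantile normalization or the lowess trend removed, the median of all genes moved by less than 0.1. That median says little, since 2460 of the 14217 genes had a difference of exactly 0 in the main setting. In these 3 settings 8.16%, 7.84% and 7.51% of the genes reaching the floor were at least 1.5-fold higher. The shares at least 1.5-fold lower were 10.1%, 10.4% and 10.9%. At least 1.5-fold higher and lower were 4 members and 1 member. With the floor at the 75th percentile, which 7 members reached, these counts were 1 and 0. With the mean of all probe sets of a gene, which adds Tk1, and with no floor, which adds Uhrf1, 5 were higher. At a log2 difference of 0.32 they were 11 and 5, and at 2-fold 0 and 0. By construction, a lower fold can only add members and a higher fold only remove them. With the floor on the mean of both arrays, an alternative chosen after seeing the data, 0 were lower, since Mcm3 no longer reached it. Low intensities limit Orc1, Orc6, Mcm10, Pola2, Pold1, Pole and Uhrf1, which were under the floor. No paired analysis was possible because there was 1 array for each treatment.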

Other observations

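Genes that control the step from G1 into S phase, upstream of the replication genes, differed in both directions. Of 28 measured genes 19 were higher and 6 lower, with a median of 0.14. Ccne1, the cyclin E that with its kinase starts S phase, stood at 122 on the OSU-HDAC42 array against 42.7 on the vehicle array (2.86-fold higher) and reached the floor through the OSU-HDAC42 array alone, while Ccne2 differed by 0.44. The D cyclins, which act earlier, were split. Ccnd2 stood at 326 against 1216 (3.73-fold lower), Ccnd1 at 1183 against 2152 (1.82-fold lower, with its other floor-reaching probe set 1.65-fold lower) and Ccnd3 at 289 against 201 (1.44-fold higher). Among the E2F factors, E2f2 stood at 223 against 121 (0.88) and E2f5 at 110 against 69.1 (0.68), while E2f6 differed by -0.51. E2f4, E2f7 and E2f8 differed by 0.35, 0.32 and 0.12. E2f1 was under the floor on both arrays, at 48.9 against 43.5. Of the inhibitors, Cdkn2d, the p19 inhibitor of Cdk4 and Cdk6, stood at 400 against 188 (2.13-fold higher), and Cdkn1c at 51.5 against 76.6 (1.49-fold lower). The phosphatase Cdc25a stood at 80.3 against 48.6 (0.72), the latter under the floor. As with the replication genes, 1 array in each group allows no test.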
